A study of Mus musculus with 6 samples.

Results

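Synaptic adhesion molecules and adhesion G protein-coupled receptors (adhesion GPCRs) were described across the cell classes of nuclei from dissected mouse striatum, in wild-type mice and in mice heterozygous for Celsr3. The members were all genes of the deposited table whose symbols name a neurexin, a neuroligin, an LRRTM, an FLRT, a teneurin, a SLITRK or an adhesion GPCR with an Adgr symbol, which gave 50 of 24841 genes: 3 neurexins, 3 neuroligins, 4 LRRTMs, 3 FLRTs, 4 teneurins, 6 SLITRKs, 4 Adgrl genes (the latrophilins Adgrl1, Adgrl2 and Adgrl3, and Adgrl4), 3 members of the brain angiogenesis inhibitor (BAI) family and 20 other adhesion GPCRs. Nuclei had been isolated from flash-frozen dissected striatum and profiled with droplet-based 3' single-nucleus RNA sequencing, in 3 wild-type and 3 Celsr3 heterozygous libraries labelled as biological replicates. The labels give no age, sex, strain or allele design, and do not say whether a library held 1 animal or several. The p-values below measure the spread between these libraries.

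Neurexins are presynaptic receptors that bind neuroligins and LRRTMs on the postsynaptic side, and teneurins and FLRTs bind latrophilins, which are adhesion GPCRs, across the synaptic cleft. SLITRKs are leucine-rich repeat proteins that bind presynaptic receptor tyrosine phosphatases. Adhesion GPCRs carry long extracellular adhesion domains joined to a 7-helix receptor core, and outside neurons they mark vessels, immune cells and ciliated epithelia. In the striatum, most neurons are GABAergic medium spiny projection neurons (MSNs), divided into those with D1 and those with D2 dopamine receptors. Celsr3 is itself an adhesion GPCR, of the cadherin type, whose symbol lies outside the naming pattern used here.

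Of 48834 nuclei in the table, 951 (1.95%) were left out as likely doublets and 47883 were kept. Leiden clustering, run with the 50 members left out of the genes that defined the clusters, gave 46 clusters of the nuclei in the table, of which 7 were removed as doublet clusters and 6 stayed unnamed. From the other 33, 17 classes were named from marker genes and carry the suffix "-like". Of these, 14 held at least 20 nuclei in each library and entered tests, led by 8463 nuclei of the D1 and 7154 of the D2 MSN-like class; choroid plexus-like, ependymal-like and fibroblast-like nuclei are described without a test. Over all its nuclei, wild-type replicate 1 stood apart in the number of genes per nucleus, with a median of 2434 against 2829 to 3001.5 in the other 5 libraries. It also held the largest share of oligodendrocyte-like nuclei, 18.5% against 9.83% to 13.5%. That class had a median of 1823 genes per nucleus, against 3390 in D1 MSN-like nuclei. Medians by library within a class were not computed. Between libraries, 274 cell barcodes were shared, covering 1.12% of nuclei. Glutamatergic neuron-like nuclei made up 3.51% to 19.98% of a library, and the clusters of that class were unevenly filled by library. A level is the mean per nucleus of the deposited depth-corrected value, given as mean ± SD over libraries. Median totals per nucleus still differed between named classes, from 5517.5 in microglia-like to 7645.5 in cholinergic interneuron-like nuclei. Levels were not divided by these totals, so the order of classes close in level holds for this unit only. Levels of different genes are not compared, since they moved with gene length: over the 50 members, Spearman's rho between gene span and the level in the highest class was 0.62, a description across genes measured in the same libraries.

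Adgrl4 and Adgrf5, both highest in endothelial-like nuclei, had the largest ratios of the highest class to the median of the 17 classes, and Lrrtm1 was the member with the smallest unadjusted p between genotypes. The 250 bases before the start site of these genes are shown from RefSeq on the GRCm38.p6 build, on the gene's strand, with AGGAAG, a core shared by many ETS-family sites, or its reverse complement CTTCCT in capitals. The Adgrl4 window is chr3:151437632-151437881, the first of the pair of annotated Adgrf5 windows is chr17:43360181-43360430, and the Lrrtm1 window is chr6:77242227-77242476, each on the plus strand.
Adgrl4: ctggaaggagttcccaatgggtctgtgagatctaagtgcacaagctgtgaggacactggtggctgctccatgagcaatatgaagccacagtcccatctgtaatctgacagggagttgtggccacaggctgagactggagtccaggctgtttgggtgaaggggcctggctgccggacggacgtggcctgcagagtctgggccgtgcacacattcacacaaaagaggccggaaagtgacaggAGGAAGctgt
Adgrf5: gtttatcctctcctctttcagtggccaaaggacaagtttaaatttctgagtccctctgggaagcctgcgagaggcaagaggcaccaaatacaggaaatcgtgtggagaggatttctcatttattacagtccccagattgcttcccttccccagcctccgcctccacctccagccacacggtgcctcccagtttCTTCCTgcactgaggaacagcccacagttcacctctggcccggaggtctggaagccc
Lrrtm1: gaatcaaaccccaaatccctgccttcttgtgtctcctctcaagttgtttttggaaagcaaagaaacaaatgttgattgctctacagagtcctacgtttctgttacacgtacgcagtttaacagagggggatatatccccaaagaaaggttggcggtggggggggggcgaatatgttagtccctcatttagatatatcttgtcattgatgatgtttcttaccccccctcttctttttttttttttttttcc
The letters AGGAAG or CTTCCT occurred once in the Adgrl4 window and once in this Adgrf5 window, and in neither the other Adgrf5 window nor that of Lrrtm1. They are common: 29.5% of 32851 RefSeq windows of this length hold them, as do 14 of the 47 windows of the 37 members with an entry (29.8%). A match describes the letters and not a bound site.

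The highest class of a member is its highest among the 17 named classes; levels in the 6 unnamed clusters are given apart. By the ratio of the highest class to the median class, adhesion GPCRs of vessels, microglia and epithelia led the members. Adgrl4 (also called ELTD1, a receptor of blood vessel endothelium, chr3:151437887-151545086) stood in endothelial-like nuclei at 4.97, 5.11 and 5.33 in wild-type and 4.81, 4.34 and 4.68 in heterozygous libraries. Its next highest class, fibroblast-like nuclei, stood at 0.0493 ± 0.116, 99.0-fold lower, and was at 0 in 4 of 6 libraries. Adgrf5 (GPR116, chr17:43360451-43459557), a receptor of lung epithelium and of vascular endothelium, was at 2.86 ± 0.311 in endothelial-like nuclei (n = 6 libraries) with a range of 2.53 to 3.21. Fibroblast-like nuclei followed at 0.313 ± 0.289, and no library of that class reached the lowest endothelial-like library. Adgre5, which encodes CD97, a receptor of leukocytes, was also highest in endothelial-like nuclei, at 0.830 ± 0.124, above mural-like nuclei at 0.403 ± 0.197, and the ranges of these classes over libraries overlapped. Adgra2 (GPR124), a coreceptor for Wnt7 signalling in brain vessels, was at 0.507 ± 0.126 in fibroblast-like, 0.460 ± 0.0707 in endothelial-like and 0.289 in mural-like nuclei, against a median of 0.0389 over the 17 classes. Cholinergic interneuron-like nuclei also held Adgrf5 at 0.266 and Adgre5 at 0.220, while Adgrl4 stood there at 0.0229; this class had only 24 to 38 nuclei per library.

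Adgre1, which encodes the macrophage antigen F4/80, was at 0.685, 0.899 and 0.909 in wild-type and 0.550, 0.603 and 0.759 in heterozygous libraries in microglia-like nuclei. In the 16 other classes it was at 0.0385 or lower. Adgrg1 (GPR56), a receptor of myelin precursors and of microglia, was likewise highest in microglia-like nuclei at 0.515 ± 0.13 and reached 0.334 in astrocyte-like and 0.266 in neuroblast-like nuclei. Adgrv1, the very large receptor of hair cell and photoreceptor links, was at 5.08 ± 1.24 in ependymal-like nuclei and 3.26 ± 0.57 in choroid plexus-like nuclei (n = 3 libraries), and at 0.707 in neuroblast-like nuclei. Ependymal-like nuclei numbered 10 to 47 per library. Adgra1 (GPR123) was highest in glutamatergic neuron-like nuclei, at 1.06 ± 0.345. GABAergic interneuron-like nuclei followed at 0.580 ± 0.0884, with ranges that overlapped over libraries. Adgra1 stood at 0.0709 and 0.0620 in D1 and D2 MSN-like nuclei, below its median over the named classes, 0.0726. Within the glutamatergic class it ranged from 0.436 in the cluster led by Tafa1 to 2.54 in the cluster led by Gm29478, clusters that were unevenly filled by library; their part in its spread was not tested.

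The remaining members of this group were low in the named classes. Adgra3 reached 0.443 in choroid plexus-like, Adgrd1 0.166 in glutamatergic neuron-like (2.03 in an unnamed cluster), Adgrf2 0.143 and Adgrg2 0.188 in cholinergic interneuron-like, and Adgrg6 0.167 in GABAergic interneuron-like nuclei. Another 8 members stayed under 0.1 in every class: Adgre4 and Adgrg5, highest in microglia-like nuclei, Adgrf1, Adgrf4 and Adgrg7, highest in cholinergic interneuron-like nuclei, Adgrg3 and Adgrg4, highest in eccentric MSN-like nuclei, and Adgrf3, highest in choroid plexus-like nuclei. At these values the order of classes is not readable.

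**Figure D1:**
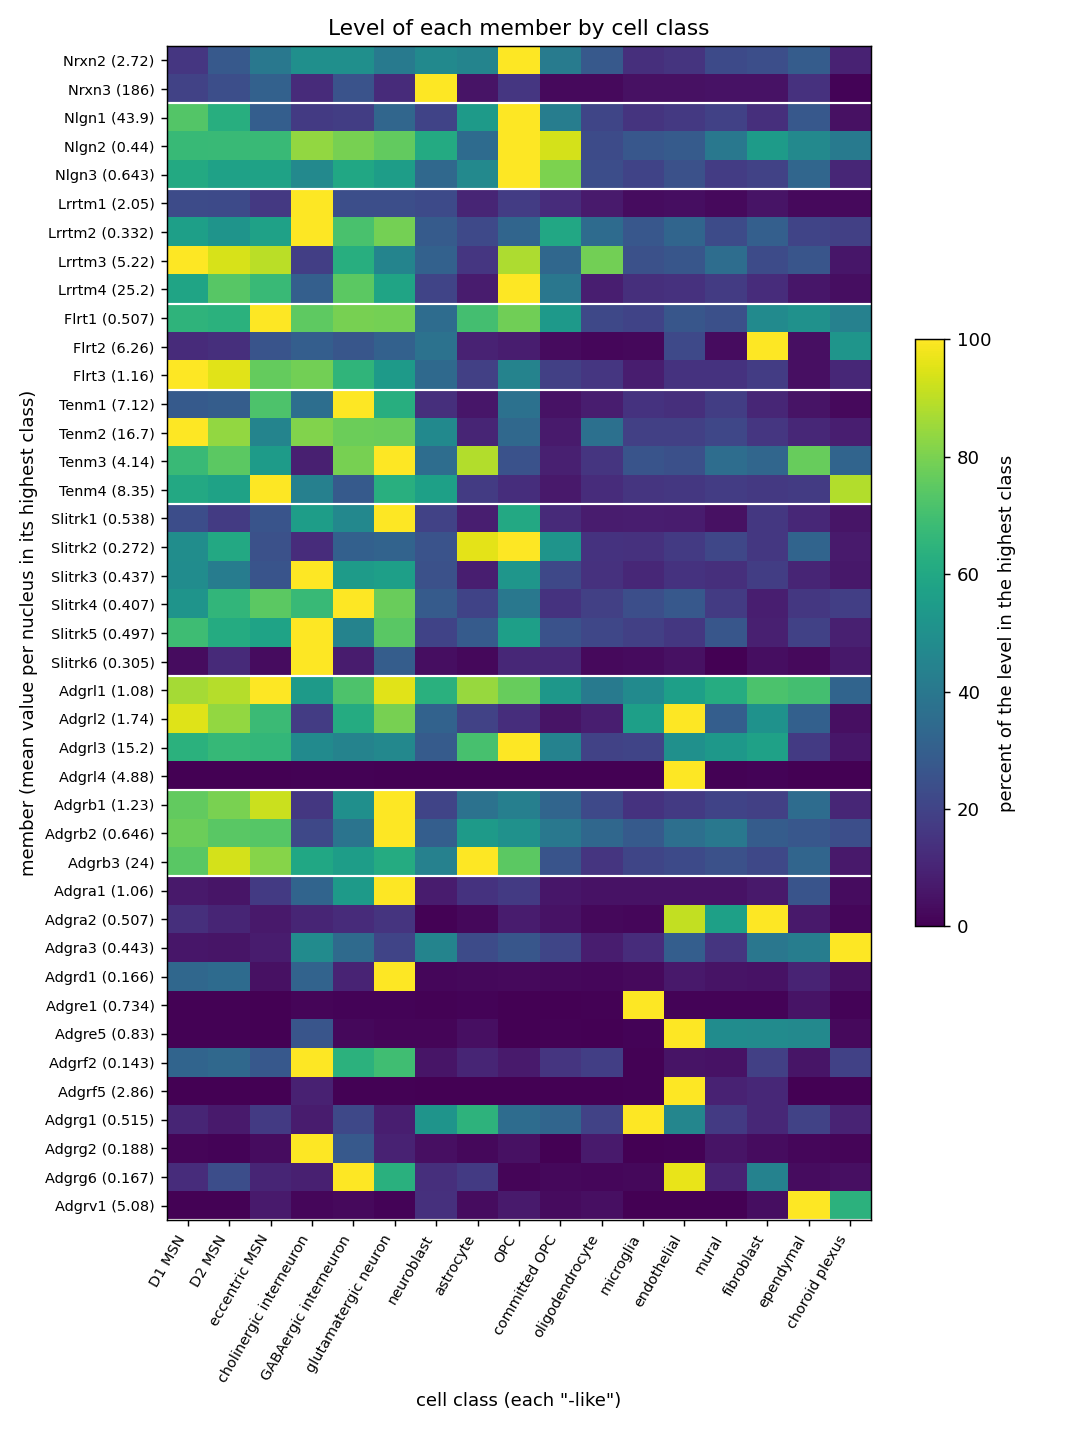
Level of 41 members that reached 0.1 in some class (rows, grouped by family and labelled with the level in the highest class, mean value per nucleus) across 17 cell classes (columns), coloured as a percentage of the highest class. Adgrl4, Adgrf5 and Adgre1 fill 1 column, whereas Adgrl1 and Nlgn2 are spread over most classes.

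**Figure D2:**
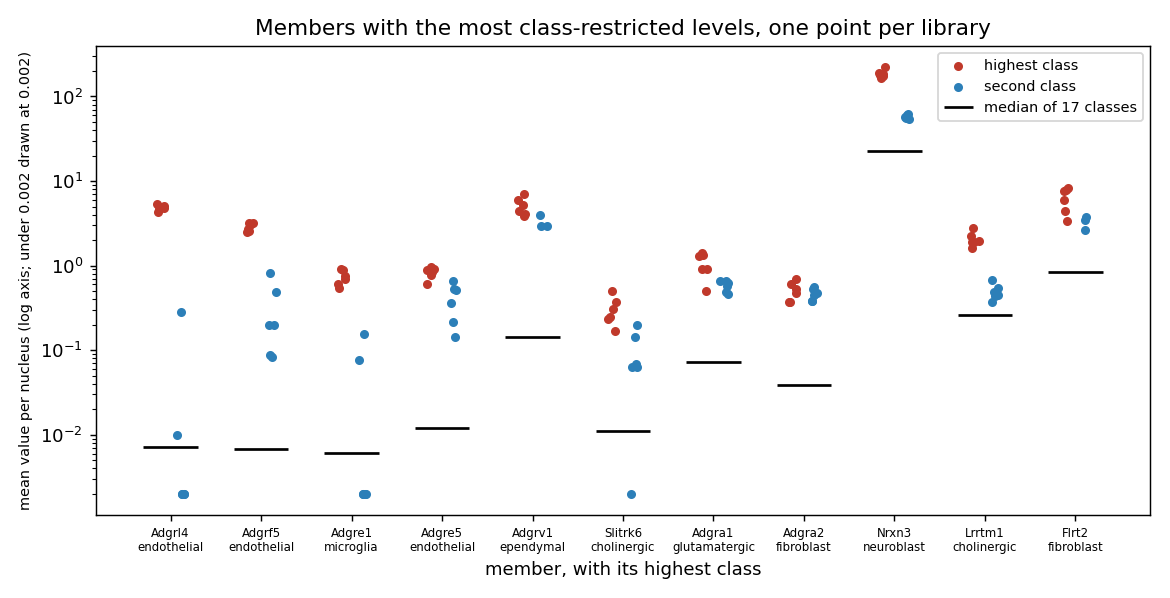
Mean value per nucleus (log axis) in each library for 11 of the members with the largest ratio of the highest class to the median class among those at 0.3 or more in their highest class, in the highest class (red) and the next class (blue), with the median of 17 classes as a bar. The points of Adgrl4 in endothelial-like nuclei lie between 4.34 and 5.33, above all points of the next class.

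Among the neurexins, Nrxn3 (chr12:88722876-90334935) stood in neuroblast-like nuclei at 189, 165 and 173 in wild-type and 181, 221 and 184 in heterozygous libraries. The leading genes of that class included Igfbpl1 and Dlx1 and also Top2a, a gene of dividing cells. The next class, eccentric MSN-like nuclei, was at 57.5 ± 2.66, and D1 and D2 MSN-like nuclei were at 36.7 and 44.4. Nrxn2 was highest in nuclei like oligodendrocyte precursor cells (OPC-like), at 2.72 ± 0.5, above cholinergic interneuron-like nuclei at 1.36 and GABAergic interneuron-like nuclei at 1.35, whose values did not separate.

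All 3 neuroligins, the neurexin receptors of the postsynaptic membrane, had their highest level in OPC-like nuclei. Nlgn1, found at excitatory synapses, stood there at 41.2 to 45.0 over the 6 libraries, above D1 MSN-like nuclei at 29.0 to 34.8. Nlgn3 was at 0.643 ± 0.095 and Nlgn2, a protein of inhibitory synapses, at 0.440 ± 0.092, and both overlapped between OPC-like and committed oligodendrocyte precursor-like nuclei, at 0.516 and 0.411. The 24 markers of MSNs stood in OPC-like nuclei at a median of 17.3% of their MSN-like level, with a range of 3.56% to 245%, and the part of neuronal RNA in the glial levels was not tested. Nlgn1 stood there at 136%, Lrrtm4 at 135% and Nrxn2 at 359% of the higher MSN-like level. In astrocyte-like nuclei, where those markers were at a median of 12.2% (1.47% to 180%), Adgrb3 was at 107%, but Tenm2 was at 10.5% and Lrrtm3 at 15.8%.

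Among the LRRTMs, postsynaptic leucine-rich repeat ligands of neurexins, Lrrtm1 marked cholinergic interneuron-like nuclei. It stood there at 2.75, 1.89 and 2.21 in wild-type and 1.96, 1.61 and 1.89 in heterozygous libraries, and at 0.376 to 0.679 in glutamatergic neuron-like nuclei, 4.14-fold lower on average. Every cholinergic value was above every value of that next class. Slitrk6 was highest in the same class, at 0.167 to 0.5 over the 6 libraries, which at 24 to 38 nuclei rests on few molecules, and its range overlapped that of glutamatergic neuron-like nuclei. Slitrk3 and Slitrk5 also had their highest level there, at 0.437 and 0.497, as did Lrrtm2 at 0.332. In each of these the range over libraries overlapped that of glutamatergic neuron-like nuclei, the next class. Lrrtm3 was highest in D1 MSN-like nuclei at 5.22 and in D2 MSN-like nuclei at 4.91, and stood at 4.1 in oligodendrocyte-like nuclei, 78.7% of the higher MSN-like level, where the MSN markers were at a median of 13.2% (1.37% to 54.6%). Lrrtm3 lies inside Ctnna3 and Lrrtm2 inside Ctnna1, each on the other strand, as do Flrt1 in Macrod1 and Flrt3 in Macrod2. The part of the surrounding genes' reads in these levels was not tested. Lrrtm4 reached 25.2 ± 2.2 in OPC-like and 18.9 in GABAergic interneuron-like nuclei.

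FLRTs bind latrophilins and the Unc5 guidance receptors. Flrt2 was highest in fibroblast-like nuclei, at 5.93, 7.89 and 7.70 in wild-type and 4.45, 8.25 and 3.34 in heterozygous libraries, where 1 library held 15 nuclei. Choroid plexus-like nuclei followed at 3.26, overlapping over libraries, and neuroblast-like nuclei at 2.36. Flrt3 was highest in D1 and D2 MSN-like nuclei, at 1.16 ± 0.095 and 1.11 ± 0.073, and Flrt1 in eccentric MSN-like nuclei at 0.507 ± 0.093. Teneurins are transmembrane proteins that bind latrophilins and each other. Tenm1 was highest in GABAergic interneuron-like nuclei (7.12 ± 0.82), Tenm2 in D1 MSN-like (16.7 ± 2.5), Tenm3 in glutamatergic neuron-like (4.14 ± 1.2) and Tenm4 in eccentric MSN-like nuclei (8.35 ± 0.87). In each teneurin the 2 highest classes overlapped over libraries; the second was eccentric MSN-like for Tenm1 (5.13), D2 MSN-like for Tenm2 (14), astrocyte-like for Tenm3 (3.67) and choroid plexus-like for Tenm4 (7.39). Cholinergic interneuron-like nuclei had the lowest Tenm3 of all classes, at 0.369, beside Tenm2 at 13.5.

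The other SLITRKs were spread. Slitrk1 was highest in glutamatergic neuron-like nuclei at 0.538, Slitrk2 in OPC-like (0.272) and astrocyte-like (0.261) nuclei, and Slitrk4 in GABAergic interneuron-like nuclei at 0.407. The 2 highest classes of each overlapped. Among the latrophilins, receptors of teneurins and FLRTs, Adgrl1 was the most even, from 0.348 in choroid plexus-like to 1.08 in eccentric MSN-like nuclei. Adgrl2 stood at 1.74 in endothelial-like and 1.66 in D1 MSN-like nuclei, and Adgrl3 at 15.2 ± 1.1 in OPC-like nuclei. Of the BAIs, which bind C1q-like ligands and signal through Elmo and Dock proteins, Adgrb1 and Adgrb2 were highest in glutamatergic neuron-like nuclei at 1.23 and 0.646, and Adgrb3 in astrocyte-like (24.0 ± 2.1) and D2 MSN-like nuclei (22.4 ± 1.2), whose ranges overlapped.

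Of the members, 12 stood higher in some unnamed cluster than in any named class, pooled over libraries that filled these clusters unevenly. In cluster 36 (183 nuclei), Tenm3 stood at 50.1, Tenm2 at 40.3, Adgrl3 at 17.5 and Adgrd1, itself among the genes that led the cluster, at 2.03. Cluster 28, with 407 nuclei led by Sfta3-ps and Lhx8, had Tenm1 at 12.3, Lrrtm4 at 28.4 and Slitrk4 at 0.735. Cluster 42 had Adgrl3 at 39.9 and Tenm4 at 14.3 in 42 nuclei. Cluster 12, led by Pmch, had Adgrl1 at 1.74, and cluster 8, in which 10 of 10 oligodendrocyte markers were raised, had Lrrtm3 at 6.09. Slitrk1 and Adgrl2 were the remaining 2 of the 12. No cell type was assigned to these clusters, so the oligodendrocyte-like class (6258 nuclei) leaves out the 2119 nuclei of cluster 8. That cluster held 471, 395 and 373 nuclei in wild-type and 176, 228 and 476 in heterozygous libraries.

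In most members D1 and D2 MSN-like nuclei differed by less than 1.5-fold. The comparison took the 37 members that passed the filter on low values in D1 or in D2 MSN-like nuclei. Of these, 3 differed by 1.5-fold or more in the same direction in all 6 libraries, which is 8.11% against 4.42% of 13476 genes. Both shares can include genes that passed only in the class where they were higher. Nrxn2 was higher in D2 MSN-like nuclei, at 0.377 to 0.477 in D1 and 0.682 to 0.792 in D2 MSN-like nuclei, a log2 difference of -0.79 ± 0.084. Slitrk6 was at 0.0104 in D1 and 0.0361 in D2 MSN-like nuclei, again higher in D2 and low in both. It passed the filter only in D2 MSN-like nuclei, so its place among the 3 is partly set by the filter. Nrxn3, Lrrtm4 and Adgrb3 were also higher in D2 MSN-like nuclei in 6 of 6 libraries, and Nlgn1 and Tenm2 higher in D1, each by less than 1.5-fold. These levels are descriptions, because the classes were defined on the same nuclei.

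Levels were also compared among the clusters inside both MSN classes. The D1 MSN-like nuclei formed 3 clusters, with Gpr139, Pdyn and Impg1 among their leading genes, and the D2 MSN-like nuclei formed 3, with Oprd1, Penk and Sema3e among theirs. Of the 29 members at 0.1 or more in some of these clusters, 8 differed 2-fold or more between the highest and the lowest cluster, against 13% of 9581 genes, and 12 by less than 1.5-fold. Members and genes entered by their highest cluster, so low ones could enter through that cluster alone and both counts are partly set by this limit. The clusters were defined on other genes of the same nuclei, so these levels are descriptions. Tenm1 stood at 0.941 ± 0.135 in the Gpr139 cluster and 1.09 ± 0.144 in the Oprd1 cluster, and at 2.59 to 3.24 in the other 4. Its values in the first pair of clusters lay below all values of the others, in each of the 6 libraries. Nlgn1 was at 14.3 ± 2.12 in the Sema3e cluster and at 24.1 to 36.0 elsewhere, and Lrrtm4 at 8.64 ± 0.612 in the Impg1 cluster and at 15.7 to 20.4 elsewhere. Slitrk1 was highest in those same clusters, at 0.214 in the Sema3e and 0.197 in the Impg1 cluster against 0.0562 to 0.117 in the other 4. Lrrtm2 was at 0.294 in the Impg1 cluster and lowest, at 0.128, in the Penk cluster. Nrxn2 followed the D1 and D2 division instead, at 0.356 to 0.469 in the D1 clusters and 0.727 to 0.819 in the D2 clusters.

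**Figure D3:**
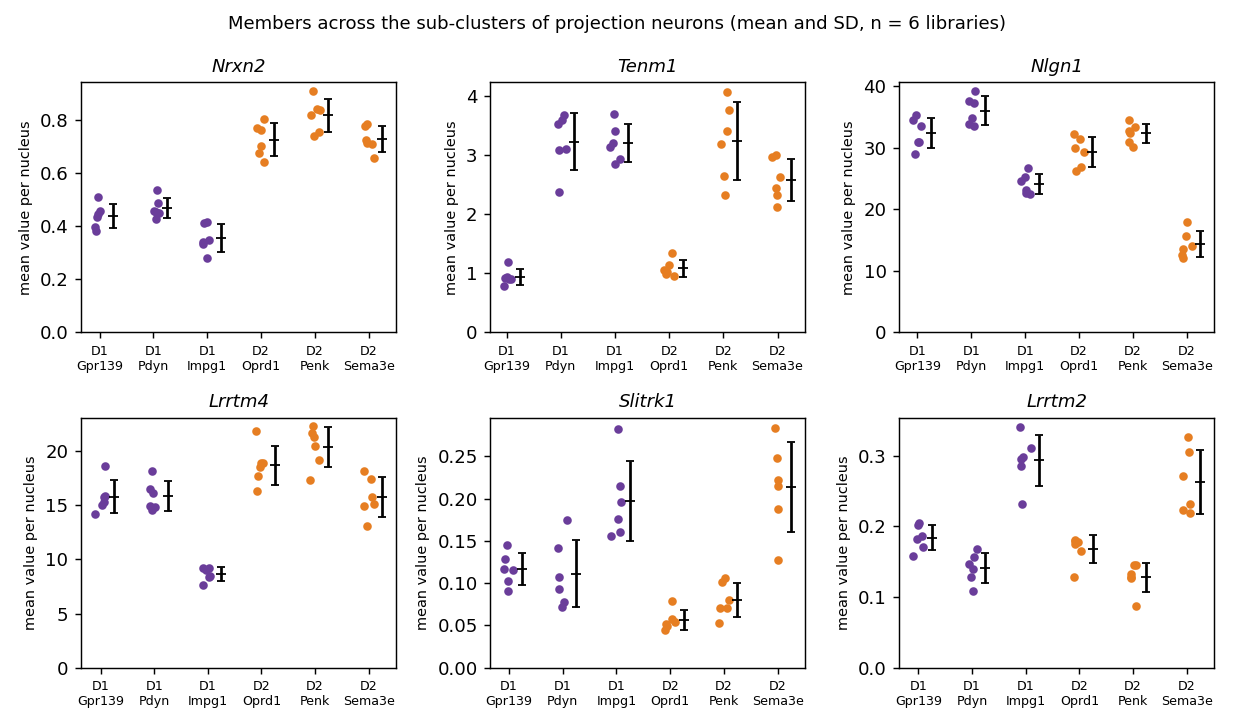
Mean value per nucleus of 6 members in the 3 D1 (purple) and 3 D2 (orange) MSN-like clusters, each named by 1 of its leading genes, with a point per library and the mean and SD over 6 libraries. Nrxn2 separates D1 from D2 clusters, whereas Tenm1 is near 1 in the Gpr139 and Oprd1 clusters and between 2.59 and 3.24 on average in the rest.

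The study's comparison was between genotypes. Celsr3, the targeted gene, stood in D1 MSN-like nuclei at 0.147, 0.169 and 0.181 in wild-type and 0.0788, 0.101 and 0.101 in heterozygous libraries, so that the groups did not overlap and the heterozygous mean was 56.4% of wild type. The same share was 61.7% in D2 MSN-like and 59.0% in glutamatergic neuron-like nuclei. GABAergic interneuron-like nuclei, where the groups overlapped, gave 91.2%. The difference had the direction of the labels but did not pass adjustment over all genes in limma-trend (adjusted p = 0.143 in D1 MSN-like nuclei).

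No member passed an adjusted p of 0.05 in limma-trend in any of the 15 populations tested. In D1 MSN-like nuclei 0 of 36 members were called, against 0.0224% of 13419 genes; 2 had an unadjusted p under 0.05, against 9.85% of all genes. In D2 MSN-like nuclei 0 of 35 were called, against 0.0156% of 12781 genes, and 2 were under the unadjusted limit, against 8.65%. Over all nuclei 0 of 41 were called, as were 0% of 14396 genes, with 3 under the unadjusted limit against 9.96% (6 against 7.81% with size-factor scaling). In the other 12 classes, 0 of 293 tests of members were called and 24 were under the unadjusted limit, against 5.34% of 80134 tests of all genes. In all, 42 members were tested in at least 1 population and 8 in none. The median log2 difference of the members was 0.06 in D1 MSN-like nuclei and equalled the 0.06 of all genes tested there; in D2 MSN-like nuclei it was 0.06 against 0.04, and over all nuclei 0.11 against 0.07. With size-factor scaling the members' medians became 0.00, 0.03 and 0.04. The count depended on wild-type replicate 1. Without it, Flrt2 was called in D1 MSN-like nuclei (log2 difference 0.44 ± 0.07, adjusted p = 0.0183 in limma-trend). Tenm3 was then called in D2 MSN-like nuclei (0.38 ± 0.07, adjusted p = 0.0327 in limma-trend). The genes called in these classes went from 3 to 232 and from 2 to 123. The low number of genes in that library is a median over all its nuclei, and its value within these classes was not computed.

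**Figure D4:**
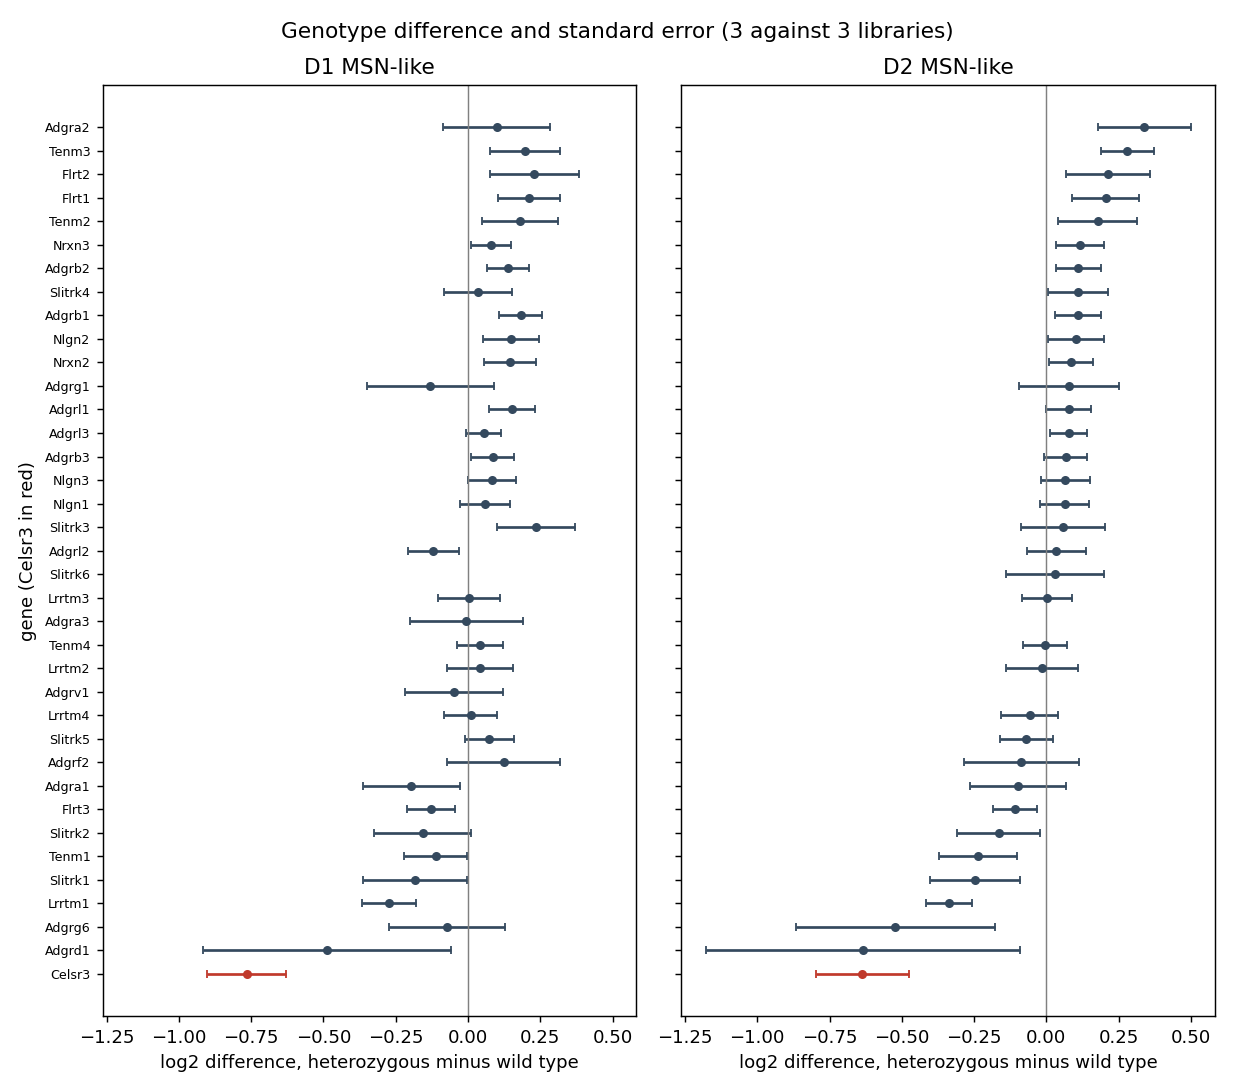
Log2 difference of heterozygous minus wild-type libraries (x axis) with its standard error for members tested in D1 (left) or D2 (right) MSN-like nuclei, with Celsr3 in red. Most members lie within 0.3 of zero, and Lrrtm1 is lower by 0.27 and 0.34.

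Lrrtm1 (chr6:77242689-77257791) had the smallest unadjusted p of the members in all, D1, D2, eccentric MSN-like and glutamatergic neuron-like nuclei. In D2 MSN-like nuclei it stood at 0.542, 0.509 and 0.505 in wild-type and 0.405, 0.403 and 0.418 in heterozygous libraries, a log2 difference of -0.34 ± 0.08 (SE) with adjusted p = 0.219 in limma-trend. In D1 MSN-like nuclei the values were 0.582, 0.496 and 0.475 against 0.435, 0.431 and 0.409, a difference of -0.27 ± 0.09 with adjusted p = 0.404. The groups did not overlap in either class, a pattern that 5.6% of genes in D2 and 5.05% in D1 MSN-like nuclei showed in this direction. In eccentric MSN-like nuclei, 1 cluster of projection neurons, it was at 0.429, 0.430 and 0.422 in wild-type and 0.277, 0.267 and 0.240 in heterozygous libraries, a difference of -0.69 ± 0.15 with adjusted p = 0.702 in limma-trend.

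Lrrtm1 was lower on average in heterozygous libraries in all 10 classes tested, by 0.12 to 0.69 on the log2 scale, also with size-factor scaling, and the groups did not overlap in 5 of them: D1, D2 and eccentric MSN-like, glutamatergic neuron-like and OPC-like nuclei. In the last 3 of these classes, 5.06%, 4.75% and 2.88% of all genes showed this pattern. Leaving out 1 library turned its sign in GABAergic interneuron-like (up to 0.07) and neuroblast-like nuclei (up to 0.04). The 10 classes share the same 6 libraries and are not independent, and the share of all genes lower in all of them was not computed. In glutamatergic neuron-like nuclei the means were 0.572 and 0.421; the clusters of this class were unevenly filled by library, and within each of the 5 clusters with both genotypes the heterozygous mean was the lower, for example 0.576 against 0.423 in the largest; the groups overlapped in 3 of them, that one included, and 3 had only 2 heterozygous libraries with enough nuclei. Within the MSN clusters it was lower in 6 of 6 as well, from 0.410 against 0.362 in the Sema3e cluster, where the groups overlapped, to 0.487 against 0.367 in the Impg1 cluster. Lrrtm1 lies inside Ctnna2, on the other strand, and whether the counting used strand is not given in the sources used here. Ctnna2 stood at 9.40 in wild-type and 10.0 in heterozygous libraries in D1 MSN-like nuclei and at 9.94 and 10.4 in D2 MSN-like nuclei; the part of its reads in the Lrrtm1 values was not tested.

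**Figure D5:**
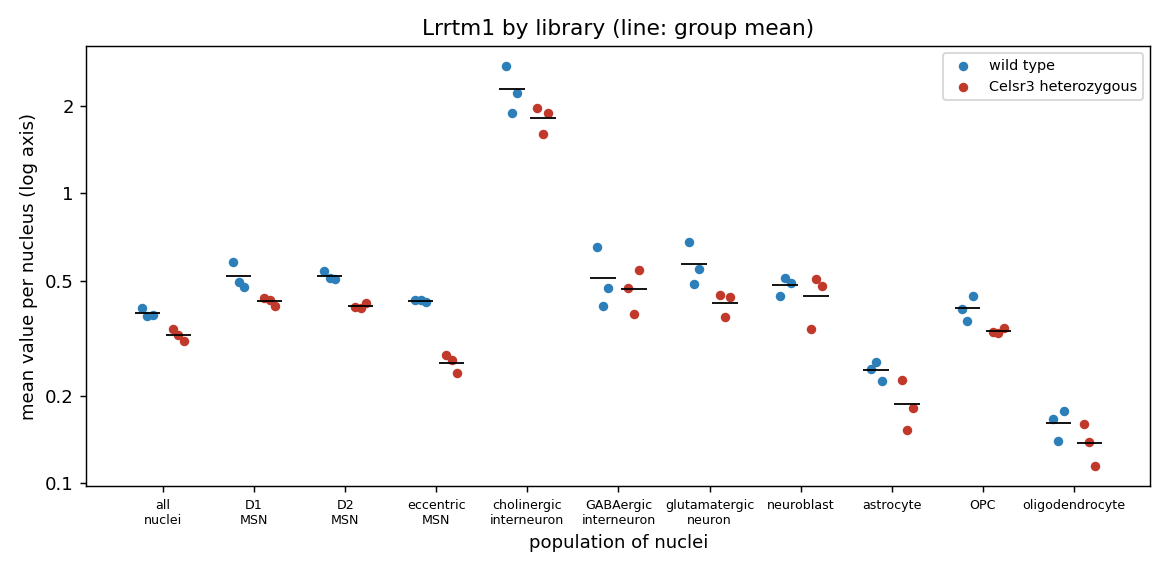
Mean value per nucleus of Lrrtm1 (log axis) in each wild-type (blue) and heterozygous (red) library, with the group mean as a line, over all nuclei and the 10 classes tested. In D1, D2 and eccentric MSN-like nuclei every heterozygous point lies below every wild-type point; in GABAergic interneuron-like nuclei the groups overlap.

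Flrt2 and Tenm3 were next over all nuclei. Flrt2 was at 0.795, 0.679 and 0.801 in wild-type and 1.13, 0.867 and 1.00 in heterozygous libraries (log2 difference 0.39 ± 0.12, adjusted p = 0.458 in limma-trend). Tenm3 was at 2.41, 2.28 and 2.26 against 2.59, 3.07 and 3.55 (0.39 ± 0.12, adjusted p = 0.458). In neither did the groups overlap, as in 14.9% of all genes in this direction. All nuclei mix classes in unequal shares, and fewer cells of a type cannot be told apart from less RNA per cell there. Unnamed cluster 36, led by Ebf2, had Tenm3 at 50.1, and heterozygous replicate 3 held 152 of its 183 nuclei; unnamed cluster 6, led by Baiap3, had it at 5.36, with 324, 92 and 259 nuclei in wild-type and 91, 1004 and 635 in heterozygous libraries. In nuclei of the named classes alone, Tenm3 was at 2.38, 2.29 and 2.26 against 2.60, 2.79 and 2.50, and the log2 difference was 0.19 (adjusted p = 0.631 in limma-trend). There the difference of Flrt2 was 0.32 (adjusted p = 0.664), and its groups overlapped. Within D2 MSN-like nuclei Tenm3 was at 3.21, 2.69 and 2.51 against 3.29, 3.52 and 3.36 (0.28 ± 0.09, adjusted p = 0.419). Flrt2 in D1 MSN-like nuclei was at 0.954, 0.619 and 0.612 against 0.822, 0.838 and 0.851, with wild-type replicate 1 the highest of the 6 (0.23, adjusted p = 0.634 in limma-trend); the difference was 0.13 without wild-type replicate 2 and 0.12 without wild-type replicate 3.

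Adgrb1 in D1 MSN-like nuclei stood at 0.821, 0.903 and 0.904 in wild-type and 1.03, 0.947 and 1.00 in heterozygous libraries (0.18 ± 0.07, adjusted p = 0.477 in limma-trend), without overlap, as did 11.5% of genes in this direction. Flrt1 in the same nuclei was at 0.304 and 0.354 on average and Adgra2 in D2 MSN-like nuclei at 0.0447 and 0.0597, with adjusted p = 0.549 and 0.602; the difference of Flrt1 went from 0.21 to 0.12 without heterozygous replicate 3. The difference of Adgra2 went from 0.34 to 0.14 with a pseudocount of 0.1. Flrt1 overlapped between genotypes; Adgra2 did not, at values of 0.0657 or less, like 8.76% of genes. The genotype difference itself differed between D1 and D2 MSN-like nuclei for 0 members, against 0.0393% of 12724 genes; Tenm1 (difference of the log2 effects 0.12 ± 0.05, adjusted p = 0.872) and Adgrl2 (-0.15 ± 0.07, adjusted p = 0.915) were the 2 members under an unadjusted p of 0.05, against 5.31% of genes.

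In eccentric MSN-like nuclei 4 of 27 members were under an unadjusted p of 0.05 in limma-trend, against 5.16% of 6744 genes. All 4 were lower, against 3% of genes in this direction. Beside Lrrtm1 these were Nlgn3 (0.440 ± 0.04 in wild-type, 0.3 ± 0.015 in heterozygous libraries), Nrxn2 (1.22 and 0.960) and Flrt3 (1.01 and 0.773), and in each the groups did not overlap, against 5.06% of genes in this direction. None passed adjustment in limma-trend, with adjusted p of 0.707, 0.958 and 0.958. In glutamatergic neuron-like nuclei Flrt2 was at 1.71 ± 0.1 and 2.20 ± 0.28 (adjusted p = 0.911 in limma-trend). Its level ranged from 0.751 in the cluster led by Gm29478 to 2.85 in that led by Trabd2b. Heterozygous replicate 1 gave 0% of the Gm29478 cluster and 47.1% of the Tafa1 cluster. Within each cluster with both genotypes the heterozygous mean was higher, for example 1.81 against 1.98 in the largest, where the groups overlapped. The part of cluster shares in the class difference was not tested.

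In microglia-like nuclei 8 of 26 members were under an unadjusted p of 0.05, against 5.43% of 8173 genes, and 7 of them were higher, against 2.2%. Flrt2 was at 0.0475, 0.0833 and 0.137 in wild-type and 0.214, 0.142 and 0.212 in heterozygous libraries (log2 difference 1.09 ± 0.31, adjusted p = 0.692 in limma-trend, and 0.63 with a pseudocount of 0.1). Tenm2 was at 2.82 and 3.49, Nrxn3 at 7.38 and 8.75 and Lrrtm4 at 3.07 and 3.72, with Nlgn3 and Adgrl3 also higher. Flrt2, Lrrtm4, Nrxn3 and Tenm2 stood in microglia-like nuclei at 16.5% to 18.8% of the higher MSN-like level, and Adgrl3 and Nlgn3 at 30.5% and 32.9%. The 24 MSN markers stood there at 1.81% to 71.9%, with a median of 17.3%. The summed level of those markers in microglia-like nuclei was 20.6 to 24.2 in wild-type and 21.3 to 23.9 in heterozygous libraries, which overlap, and the part of free neuronal RNA in these differences was not tested. Of the 8, only Adgre1 had its highest level in microglia-like nuclei. It was lower in heterozygous libraries, at 0.831 ± 0.13 and 0.637 ± 0.11 (-0.38 ± 0.15, adjusted p = 0.910 in limma-trend), and its groups overlapped.

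Among the other classes, Tenm2 in cholinergic interneuron-like nuclei was at 10.7, 13.5 and 8.50 in wild-type and 17.1, 15.5 and 16 in heterozygous libraries (0.60 ± 0.17, adjusted p = 0.780 in limma-trend). It was higher on average in all 14 classes tested, which share the same libraries, by 0.0040 to 0.60 on the log2 scale. Taken 1 class at a time, 48.2% to 65.1% of all genes were higher, and the share of genes higher in all 14 was not computed. Tenm2 was also the leading member in astrocyte-like (1.58 and 1.93) and oligodendrocyte-like nuclei (4.94 and 7.42), where the groups overlapped. In D1 MSN-like nuclei it stood at 16.7. Its astrocyte-like share of that level, given above, lay below the median of the 24 MSN markers there (12.2%). The marker medians were 13.2% in oligodendrocyte-like, 17.2% in endothelial-like and 22.1% in mural-like nuclei. The part of neuronal RNA in differences of glial and vascular classes was not tested. Leaving out 1 library turned the sign of Tenm2 in GABAergic interneuron-like, committed oligodendrocyte precursor-like, eccentric MSN-like, glutamatergic neuron-like and neuroblast-like nuclei, down to -0.20. Adgrv1 in neuroblast-like nuclei was at 0.752, 1.28 and 0.643 against 0.547, 0.448 and 0.571 (-0.70 ± 0.24, adjusted p = 0.972). The leading member of the remaining classes was Flrt2 in OPC-like nuclei (0.410 and 0.610, with 27 nuclei in 1 heterozygous library, whose summed MSN marker level was 34.8 against 17.4 to 20.7 in the other 5), Tenm4 in committed oligodendrocyte precursor-like (0.390 and 0.730), Nrxn2 in endothelial-like (0.329 and 0.492), Adgrl2 in GABAergic interneuron-like (1.2 and 0.946) and Tenm3 in mural-like nuclei (1.25 and 1.72). Their adjusted p lay between 0.735 and 0.954 in limma-trend. Several of these differences rested on single libraries: Tenm4 went from 0.76 to 0.37 without heterozygous replicate 1 and to 1.16 without heterozygous replicate 3. Tenm3 in mural-like nuclei went from 0.46 to 0.29 without wild-type replicate 2 and to 0.28 without heterozygous replicate 3, and Adgrl2 from -0.35 to -0.19 without heterozygous replicate 1. Adgrv1 went to -0.41 without wild-type replicate 2, and Tenm2 in oligodendrocyte-like nuclei from 0.58 to 0.38 without heterozygous replicate 2.

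The extracellular partners of these receptors and their scaffolds gave no call either. Of 43 partners (cerebellins, C1q-like proteins, neurexophilins, Unc5 receptors, receptor phosphatases and others), 32 were tested in D1 and 31 in D2 MSN-like nuclei, with 5 in each under an unadjusted p of 0.05, against 9.85% of all genes in D1 and 8.65% in D2. Clstn2, a calsyntenin, was at 1.04 ± 0.065 and 0.759 ± 0.11 in D1 MSN-like nuclei (adjusted p = 0.241 in limma-trend), and Unc5d, a netrin and FLRT receptor, at 3.45 ± 0.74 and 2.33 ± 0.46 in D2 MSN-like nuclei (adjusted p = 0.353). Lrrc4b, a synaptic ligand of receptor phosphatases, was under the unadjusted limit in both classes and higher in both, at 0.372 and 0.470 in D1 and 0.359 and 0.428 in D2. Of 27 scaffold genes 26 were tested in each class, with 1 and 3 under the unadjusted limit, against the same shares of all genes. Shank3, a scaffold of excitatory synapses, was at 0.674 and 0.780 in D1 and 0.658 and 0.801 in D2 MSN-like nuclei (adjusted p = 0.449 and 0.297).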

How the data were processed

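The deposited table holds 1 whole-number score per gene and nucleus. The sources used here do not say how it was made; the submitters' processing notes name Cell Ranger, Seurat 4.1 and the mm10/GRCm38 build. Totals per nucleus ran from 4523 to 10638 with a coefficient of variation of 10.7%, narrower than raw counts give, so the values were read as depth-corrected and rounded, and no count model was used; the depth before correction is unknown.

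All nuclei were clustered on 2000 variable genes, with the members excluded from these (30 principal components, 15 neighbours by scikit-learn 1.9.0, Leiden resolution 1 by leidenalg 0.10.2). Nuclei with a scrublet score above 0.25 (scanpy 1.11.5, run on the deposited values), and the 7 clusters in which they made up more than 40%, were then removed (951 nuclei). Clusters were named from listed markers by thresholds set after the clusters had been seen; 6 clusters stayed unnamed. The mean per nucleus, library and class was tested as log2(mean + 0.01) with limma 3.58.1 (trend), so that log2 differences understate changes of low genes, and p-values were adjusted by Benjamini-Hochberg over all genes of a population. A gene entered with a mean of 0.02 and a summed value of 30 per library on average. The fit was also run on simulated data, and the outcome of that run is not given here. With 3 libraries against 3, a permutation test cannot go below p = 0.1. Gene positions are from GENCODE on GRCm38.

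Named in full were Celsr3, the 3 members of smallest unadjusted p in all, D1 and D2 MSN-like nuclei, the 1 of smallest p in each other class, and the 12 members with the largest ratio of highest to median class among those at 0.3 or more in the highest class; Flrt2 in D1 MSN-like nuclei and others under the unadjusted limit were added after their values were seen. The members and lists were chosen with earlier results of these data known. Alternatives were a pseudocount of 0.1, no filter on low values, size-factor scaling, a replicate block, each library left out, doublets kept, members kept among the variable genes and, added after seeing the data, nuclei of the named classes only. 1 member counted among the 50 is not reported here.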

Additional observations from a re-analysis of the deposited data

How the results depend on the processing

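Each count of members called was recomputed under 11 alternatives. All stayed at 0 with 2 exceptions: without wild-type replicate 1, 1 member was called in each of the D1 and D2 MSN-like classes, so leaving out 1 library gave a range of 0 to 1 in both; the cause was not tested. Of the 22 genotype differences named in full, none was called in the main fit, 20 kept their direction and stayed uncalled under every alternative, and none reversed. The other 2 passed the threshold without wild-type replicate 1: Tenm3 in D2 MSN-like nuclei (0.38, adjusted p = 0.0327 in limma-trend) and Flrt2 in D1 MSN-like nuclei (0.44, adjusted p = 0.0183 in limma-trend). All but the latter were chosen for a small p in the main fit, so their kept direction was partly set by that choice. Lrrtm1 and Tenm2 did turn sign in some classes where they were not so chosen. All 24 recomputed levels of the 12 class-restricted members, with members kept among the variable genes or doublets kept, moved by less than 1 SD. With members kept, 98.7% of nuclei kept their class. The replicate block left the count of members called at 0 in every population. Deviations of same-numbered libraries from their group means correlated at 0.27, 0.016 and 0.18 in D1 MSN-like nuclei. Libraries with different numbers were not set beside these, so whether the numbers pair the libraries was not tested. Counts of members under an unadjusted p of 0.05 went, with 1 library left out, from 2 to between 0 and 8 in the D1 class (8 without wild-type replicate 1, 0 without heterozygous replicate 3), from 2 to between 2 and 5 in the D2 class (5 without wild-type replicate 1), from 3 to between 3 and 7 over all nuclei (7 without heterozygous replicate 1), and from 24 to between 16 and 37 in the other classes (37 without heterozygous replicate 3); for the D1 against D2 difference 2 became 1 to 4, the highest without wild-type replicate 3. Other settings moved these counts to 6 over all nuclei and 1 in the D1 class with size-factor scaling, 39 in the other classes with no filter and 0 for the D1 against D2 difference with the block. Counts over all genes moved more. In the D1 class 3 genes were called, 5 with size-factor scaling, and 1 to 232 with 1 library left out, the highest without wild-type replicate 1 and the lowest without heterozygous replicate 1 or 2. In the D2 class 2 were called, 1 with a pseudocount of 0.1, 4 with size-factor scaling, 6 with the replicate block, and 0 to 123 with 1 library left out, the highest again without wild-type replicate 1. Summed over the other 12 classes 0 were called, 1 with a pseudocount of 0.1, 10 with no filter on low values, 2 with the block, and up to 27 without heterozygous replicate 3. For the D1 against D2 difference 5 were called, 0 with no filter, 0 with the block, and 3 to 20 with 1 library left out, the highest without heterozygous replicate 3. The main fit of this difference had library as a block. The replicate block took its place, so that the D1 and D2 values of a library were no longer paired. The cause of these shifts was not tested. In nuclei of the named classes only, chosen after seeing the data, 0 members were called over all nuclei, and the difference of Tenm3 went from 0.39 to 0.19. Cholinergic interneuron-like levels rest on 24 to 38 and ependymal-like levels on 10 to 47 nuclei per library.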

Other observations

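A cluster of 261 nuclei led by Mrc1, a marker of macrophages at brain borders, was left out because over 40% of its nuclei had a high doublet score. Adgre1 stood there at 0.828 and Adgre5 at 0.130, beside neuronal members such as Nrxn3 at 23.9 and Nlgn1 at 14.8. Pooled over libraries, these are values of a cluster in which doublets were not separated.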
